A study of Mus musculus with 12 samples.

Results

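Apelin (Apln) and the apelin receptor (Aplnr) are a secreted peptide and its G protein-coupled receptor, and their transcripts were followed here through 12 libraries of mouse lung endothelial cells. The members were taken by symbol, 1 row each, so the account covers 2 of the 24421 genes listed. Both passed the filter on low values, which asked 4 libraries or more to reach 1 CPM and left 11633 genes. The pair was chosen by measured values, the group differences of Apln in these same libraries, with earlier results known, so the values of both members are a description and carry no p-value.

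Cells were sorted by flow cytometry as endothelial cells from the lungs of mice of the C57BL/6J strain, 5 days after birth. In L12YT-ECKO mice 4 genes were floxed, Lats1, Lats2, Yap1 (labelled Yap) and Wwtr1 (labelled TAZ), together with VE-cadherin-CreERT2, a tamoxifen-dependent recombinase under an endothelial promoter. L12-ECKO mice carried the same driver with floxed Lats1 and Lats2 alone. The WT group was wild type (no label says whether it carried the recombinase). Each group had 4 libraries, and the sources used here give no time or dose of induction. Lats1 and Lats2 are kinases of the Hippo pathway, and YAP and TAZ are the transcriptional co-activators they hold in check. L12YT-ECKO was therefore set against L12-ECKO, which differs from it in Yap1 and Wwtr1, and each knockout group was set against WT.

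Apelin is made as a longer precursor that is cut into short C-terminal peptides. Its receptor couples mainly to inhibitory G proteins and recruits beta-arrestins, and Apela (also called Elabela or Toddler) is another peptide ligand of the same receptor. In sprouting vessels of mice the ligand is made mostly by tip cells at the front, while the receptor is found in the stalk behind them and in veins. In the mouse lung the ligand marks aerocytes, the wide capillary cells specialised for gas exchange, and the receptor marks general capillary cells, which serve as their progenitors.

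Apln (ENSMUSG00000037010) lies on chromosome X, at 48025146 to 48034853 on the minus strand of mm10 (GENCODE M21), and is protein coding. Its 3 exons end in exon 3, which runs from 48025146 to 48027707, 2562 bases that are all untranslated. Aplnr (ENSMUSG00000044338) lies on chromosome 2, at 85136225 to 85139923 on the plus strand. Its transcript Aplnr-201 has 1 exon, of which the last 2160 bases, from 85137764 to 85139923, are 3′ UTR. The libraries read a short stretch near the 3′ end of a transcript, and both genes end in a long untranslated stretch in which such reads fall.

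The promoter of Apln is shown because Apln is the member whose level differed more between groups. RefSeq's table for GRCm38.p6 held 1 of the 2 members, and the window below is the 250 bases before the annotated start, chrX:48034854-48035103 on the minus strand, written 5′ to 3′. Capitals mark a GC box (GGGCGG), the binding motif of Sp family factors.
Apln promoter: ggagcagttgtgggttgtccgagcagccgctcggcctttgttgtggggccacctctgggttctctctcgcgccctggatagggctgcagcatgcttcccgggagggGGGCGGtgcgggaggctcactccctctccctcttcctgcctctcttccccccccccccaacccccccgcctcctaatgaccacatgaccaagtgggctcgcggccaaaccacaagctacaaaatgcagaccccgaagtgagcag
The window is 65.2% G or C, against a median of 52.4% over the promoter windows of all genes in that table. The GC box begins 144 bases before the start, and 32.7% of 32851 windows of the same length hold such a box on either strand. Of 4 other motifs searched on both strands, none was present in these letters. They were the TEAD motif GGAATG, found in 12.6% of windows, the core of the hypoxia response element, ACGTG or GCGTG, found in 38.6%, the AP-1 motif TGANTCA, found in 6.75%, and the FOXO motif GTAAACA, found in 3.17%. These matches describe the letters of the window and are not evidence of binding.

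The deposited values are quantile-normalised log2 expression, so a difference of 1 stands for a 2-fold difference. Sequencing depth is unknown. The libraries listed 11336 to 13023 genes above 0 in L12YT-ECKO, 9850 to 13078 in L12-ECKO and 11100 to 11276 in WT. L12-ECKO replicate 3 had the fewest, and its lowest value above 0 was 4.98. A block of rows was displaced in 5 libraries (L12YT-ECKO replicates 3 and 4 and L12-ECKO replicates 2, 3 and 4), which was treated as a batch, and neither member lies in that block. By Xist and Ddx3y, L12YT-ECKO replicate 3, L12-ECKO replicates 2, 3 and 4 and WT replicate 4 came from females. Wwtr1 was lower in L12YT-ECKO, at 8.16 to 9.37, against 10.11 to 11.57 in L12-ECKO and 11.56 to 12.01 in WT. Yap1 was also lower there, at 6.69 to 8.20, against 9.35 to 10.45 in L12-ECKO and 9.46 to 10.02 in WT. Lats1 was scattered (0 to 7.90, 0 to 7.40 and 5.32 to 7.45 in L12YT-ECKO, L12-ECKO and WT), and Lats2 lay at 8.63 to 9.57, 9.72 to 10.33 and 8.42 to 9.34 in the same order. The sources used here name no deleted exons, and a 3′ tag outside a deletion checks nothing.

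The ligand was highest in the libraries labelled L12-ECKO, with floxed Lats1 and Lats2 and without floxed Yap1 and Wwtr1. Apln stood at 10.80, 10.96, 11.05 and 11.48 (log2 expression) in L12YT-ECKO replicates 1 to 4. The L12-ECKO libraries had 13.37, 13.12, 13.27 and 12.55. The WT libraries had 10.12, 9.96, 10.55 and 11.23. Every L12-ECKO library lay above every library of the other groups, and L12YT-ECKO and WT overlapped, because WT replicate 4 exceeded 3 of the 4 L12YT-ECKO libraries. The means were 11.07 ± 0.29 in L12YT-ECKO, 13.08 ± 0.37 in L12-ECKO and 10.46 ± 0.57 in WT (SD, n = 4 each).

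Set against L12-ECKO, Apln in L12YT-ECKO had a log2 difference of -2.01 (SE 0.30), 4.02-fold lower, and the nearest libraries of the groups were 1.07 apart. L12-ECKO differed from WT by 2.61 (SE 0.30), 6.12-fold higher, with a gap of 1.32 between the nearest libraries. L12YT-ECKO differed from WT by 0.61 (SE 0.30), 1.52-fold higher, with overlapping groups, although all 4 L12YT-ECKO libraries lay above the WT mean. Each pair of these comparisons shares a group, so the 3 differences are not independent of each other. In the order of levels, L12-ECKO thus stood apart while the neighbours L12YT-ECKO and WT did not differ beyond the overlap of their libraries.

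A separation of this kind was met by a minority of genes. Among the 2 members, 1 was higher in L12-ECKO than in WT with no overlap, and 2.97% of all tested genes were. In L12YT-ECKO against L12-ECKO 1 of the 2 members was lower with no overlap, and 1.62% of all tested genes were. In L12YT-ECKO against WT neither member separated, and 4.7% of all tested genes did in either direction. Apln was among the measures that led to its choice, so nothing is read from these shares. By size alone, 11.03% of tested genes had a larger absolute difference than Apln in L12YT-ECKO against L12-ECKO and 9.56% in L12-ECKO against WT. These shares include genes listed at 0 in some libraries, such as Rprml (4.57, SE 1.57, in L12YT-ECKO against L12-ECKO). Apln was at 9.955 or above in every library, so the shares do not place its difference among genes of like abundance.

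Within a library the place of Apln among all genes followed its value. It ranked between 674 and 1161 from the top of the 24421 rows in L12YT-ECKO, between 111 and 258 in L12-ECKO and between 834 and 2065 in WT. With quantile-normalised values the ranks largely restate the values and are not a second measure. They also depend on how well the 3′ end of each transcript was captured, so they place Apln between groups and do not compare it with other genes.

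**Figure D1:**
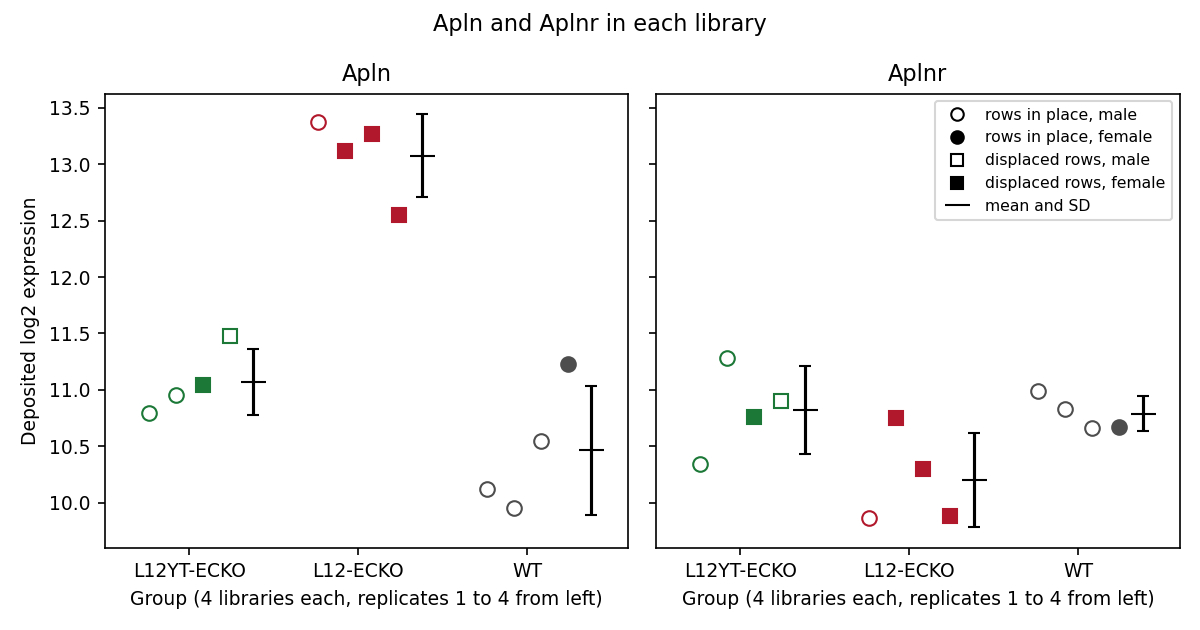
Deposited log2 expression of Apln (left) and Aplnr (right) on the vertical axis in each of 12 libraries, by group on the horizontal axis. Points are libraries, marked by row displacement and sex, and bars give the mean and SD of 4 libraries; Apln in L12-ECKO lies between 12.55 and 13.37, above every other library, while the Aplnr groups overlap.

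The receptor differed less between groups. Aplnr stood at 10.34, 11.29, 10.76 and 10.90 (log2 expression) in L12YT-ECKO replicates 1 to 4. The L12-ECKO libraries had 9.87, 10.75, 10.30 and 9.88. The WT libraries had 10.99, 10.83, 10.66 and 10.67. In 3 of the 4 L12-ECKO libraries the receptor lay below every WT library, and L12-ECKO replicate 2 fell inside the WT range, so the groups overlapped. The L12YT-ECKO libraries spread on both sides of the WT range. The means were 10.82 ± 0.39 in L12YT-ECKO, 10.20 ± 0.42 in L12-ECKO and 10.79 ± 0.16 in WT (SD, n = 4 each).

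Aplnr in L12YT-ECKO differed from L12-ECKO by 0.62 (log2, SE 0.30), 1.54-fold higher. In L12-ECKO against WT the difference was -0.59 (SE 0.30), 1.504-fold lower. In L12YT-ECKO against WT it was 0.03 (SE 0.30). All 3 pairs of groups overlapped, and 44.7%, 55.2% and 96.2% of tested genes had a larger absolute difference in the same order of comparisons. Its rank among all rows ran from 796 to 1607 in L12YT-ECKO, from 1203 to 2176 in L12-ECKO and from 1006 to 1281 in WT. These are bulk libraries, in which fewer cells of a type and less RNA per cell cannot be told apart, for the ligand as for the receptor.

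The value of Apln minus that of Aplnr in the same library follows the ligand relative to its receptor. It also holds how well each 3′ end was captured, so only its difference between groups is read. It was 0.46, -0.33, 0.29 and 0.58 (log2) in L12YT-ECKO replicates 1 to 4, 3.502, 2.37, 2.98 and 2.66 in L12-ECKO, and -0.87, -0.88, -0.11 and 0.56 in WT. The 4 L12-ECKO libraries lay above all others, and L12YT-ECKO and WT overlapped. Group means were 0.25 ± 0.40 in L12YT-ECKO, 2.88 ± 0.49 in L12-ECKO and -0.32 ± 0.69 in WT (SD, n = 4 each). The difference was -2.63 (SE 0.38) in L12YT-ECKO against L12-ECKO, 3.20 in L12-ECKO against WT and 0.57 in L12YT-ECKO against WT, each with the same SE. Within groups, ligand and receptor showed no shared deviation, since the Pearson correlation of their deviations from the group means was 0.02 over the 12 libraries, which share 3 group means.

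**Figure D2:**
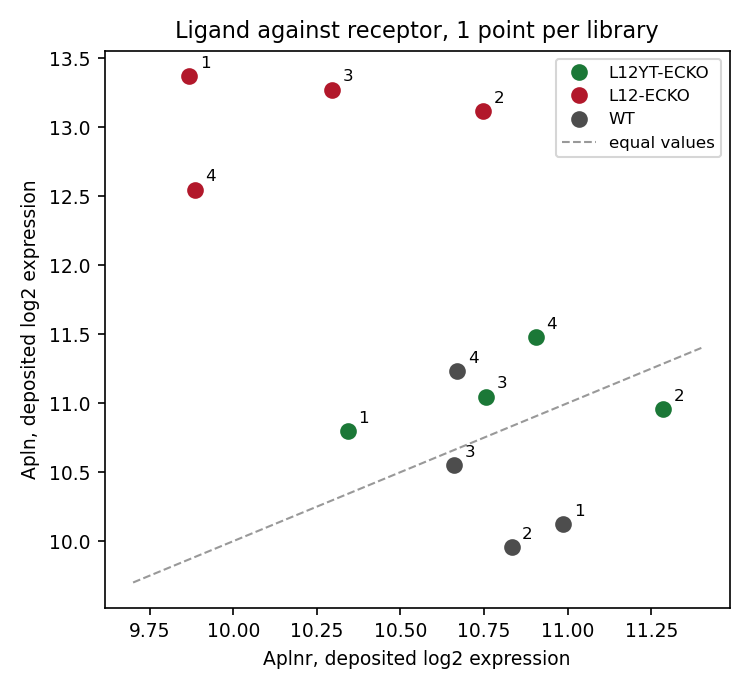
Apln (vertical axis) against Aplnr (horizontal axis), both in deposited log2 expression, with 1 point per library coloured by group and numbered by replicate. The L12-ECKO libraries stand together at high Apln, from 12.55 to 13.37, and the L12YT-ECKO and WT libraries mix near the dashed line of equal values.

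The batch and sex of the libraries fall unevenly on the groups, and the differences were recomputed within each. Among the 7 libraries with rows in place, the only L12-ECKO library was replicate 1. Apln differed there by -2.49 in L12YT-ECKO (2 libraries) against L12-ECKO (1 library). It differed by 2.91 in L12-ECKO against WT (4 libraries), and by 0.41 in L12YT-ECKO against WT. Aplnr differed there by 0.95, -0.92 and 0.03 in the same order. Among the displaced libraries, which hold no WT, L12YT-ECKO (2 libraries) differed from L12-ECKO (3 libraries) by -1.72 for Apln and 0.52 for Aplnr. For both members the sign of L12YT-ECKO against L12-ECKO was thus the same in both batches, while the comparisons with WT could be made in 1 batch only.

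Apln lies on chromosome X, and both members were also compared within each sex. In males Apln differed by -2.29 in L12YT-ECKO (3 libraries) against L12-ECKO (1 library), by 3.16 in L12-ECKO against WT (3 libraries) and by 0.87 in L12YT-ECKO against WT. In females the values were -1.93 (1 library against 3), 1.75 (3 against 1) and -0.19 (1 against 1). Apln in L12YT-ECKO was therefore above WT in males and below it in the single female pair, and the difference between the sexes was not tested. Aplnr differed by 0.98, -0.96 and 0.02 in males and by 0.45, -0.36 and 0.09 in females. The 3 female L12-ECKO libraries all have displaced rows, so batch and sex cannot be told apart in that group. The 1 male L12-ECKO library, replicate 1, is also the 1 with rows in place. It had the highest immune marker mean of all libraries, 7.99, and the highest Apln and lowest Aplnr values of its group.

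Markers of other cells were read beside the members. For the counts at an unadjusted p given from here on, 6.08% of all tested genes passed in L12YT-ECKO against L12-ECKO, 12.2% in L12-ECKO against WT and 6.23% in L12YT-ECKO against WT. All 16 pan-endothelial markers lay above 0 in all 12 libraries, and their mean per library was 12.65 to 12.83 in L12YT-ECKO, 12.54 to 12.67 in L12-ECKO and 12.67 to 12.82 in WT. Egfl7, a secreted endothelial protein, had the same value of 17.72 in every library. Under quantile normalisation an equal value stands for an equal rank and does not measure equal expression. limma called 1 of the 16, Cldn5, a tight junction protein, which was higher in L12YT-ECKO than in L12-ECKO by 1.14 (SE 0.21, limma adjusted p = 0.0401). It stood at 14.79 ± 0.12 in L12YT-ECKO and 13.65 ± 0.46 in L12-ECKO (SD, n = 4 each). Of all tested genes 0.0688% were called in that comparison. In L12-ECKO against WT and L12YT-ECKO against WT limma called 0 of 16, with 6 and 1 at an unadjusted p under 0.05. The call of Cldn5 was lost in 19 of 24 alternative settings, with adjusted p-values up to 0.872.

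The immune markers averaged 2.47 to 4.30 per library in L12YT-ECKO, 1.80 to 7.99 in L12-ECKO and 1.45 to 4.52 in WT. The highest was L12-ECKO replicate 1, in which the neutrophil genes S100a8 and S100a9 reached 15.20 and 15.56. The liver markers averaged 1.496 to 7.14 in L12YT-ECKO, 1.63 to 7.88 in L12-ECKO and 1.03 to 4.003 in WT, and all 6 tested liver genes had a higher mean in L12-ECKO than in WT, by a median of 3.21. The L12-ECKO library with the highest immune mean, replicate 1, had rows in place and the lowest liver mean of its group, 1.63. The 3 others, with displaced rows, had 5.18 to 7.88. Over all groups the liver mean followed the batch, at 5.18 to 7.88 in the 5 displaced libraries and 1.03 to 4.003 in the 7 with rows in place. No WT library was displaced, and the part of the batch in the liver differences was not tested. Apln in L12-ECKO against WT was 2.51 without replicate 1.

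The library means of other marker lists overlapped between groups. Epithelial markers averaged 3.73 to 6.66 in L12YT-ECKO, 4.13 to 6.69 in L12-ECKO and 4.44 to 6.70 in WT, mesenchymal markers 4.42 to 7.01, 3.92 to 6.28 and 5.42 to 6.04, and red cell markers 7.54 to 9.44, 7.56 to 9.86 and 6.02 to 10.37 in the same order. Sftpc, a surfactant protein of alveolar epithelium, reached 10.94, 10.96 and 10.75 in the highest library of each group, and the haemoglobin gene Hba-a1 reached 15.44, 14.86 and 16.02. Lymphatic markers averaged 2.75 to 4.70, 2.52 to 4.94 and 3.02 to 4.90, and Prox1, the factor that defines lymphatic endothelium, was listed at 0 in all 12 libraries. limma called none of the tested members of these lists in any comparison. At an unadjusted p under 0.05 it passed 2 of 6 liver genes, 3 of 6 mesenchymal genes and 1 of 3 lymphatic genes in L12-ECKO against WT, 1 mesenchymal and 1 lymphatic gene in L12YT-ECKO against L12-ECKO, and 0 immune, epithelial or red cell genes in any comparison. Their part in the values of Apln and Aplnr was not tested.

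The other ligand and the peptidases of the system gave little to compare. Apela was listed at 0 in all 4 L12YT-ECKO libraries, all 4 L12-ECKO libraries and 3 of 4 WT libraries, with 6.89 in the remaining WT library, and it was not tested. Klkb1, whose enzyme can cut apelin peptides, was at 0 in 10 of 12 libraries and was not tested either. Furin, a convertase able to cut the apelin precursor, averaged 11.49 ± 0.34 in L12YT-ECKO, 10.94 ± 0.54 in L12-ECKO and 11.14 ± 0.52 in WT (SD, n = 4 each). Ace, which encodes angiotensin-converting enzyme, averaged 13.65 ± 0.23, 13.63 ± 0.34 and 13.67 ± 0.20 in the same order. limma called 0 of the 3 tested genes in any comparison, and none had an unadjusted p under 0.05.

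Genes that couple the receptor to the cell, 11 in all, included inhibitory and other G protein subunits, beta-arrestins and the kinases that desensitise such receptors. limma called 0 of 11 in each comparison, with 1, 2 and 1 at an unadjusted p under 0.05 in L12YT-ECKO against L12-ECKO, L12-ECKO against WT and L12YT-ECKO against WT. In L12-ECKO 9 of 11 had a lower mean than in WT, with a median difference of -0.20 against -0.02 over all tested genes. Gnai2, an inhibitory G protein subunit, averaged 13.08 ± 0.20 in L12YT-ECKO, 12.52 ± 0.49 in L12-ECKO and 13.37 ± 0.15 in WT (SD, n = 4 each). Its difference in L12-ECKO against WT was -0.85 (SE 0.23, limma adjusted p = 0.133), with no overlap between the groups, as for 3.36% of all tested genes in that direction. Gnai3, another inhibitory subunit, named after its values were seen, separated the other way, at 8.48 ± 0.68 in L12YT-ECKO, 8.43 ± 0.37 in L12-ECKO and 7.21 ± 0.72 in WT (SD, n = 4 each), 1.22 higher in L12-ECKO than in WT and not called. Of all tested genes 2.97% were higher with no overlap in that comparison. Arrb1, beta-arrestin 1, averaged 12.11 ± 0.32, 12.11 ± 0.35 and 12.31 ± 0.45 in the same order of groups.

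Signalling below the receptor was followed through 22 genes, of which 20 were tested, among them kinases of the AKT and ERK pathways, nitric oxide synthase, MEF2 factors and gap junction genes. Fgf2, a growth factor placed downstream of apelin in endothelium, was listed at 0 in all 12 libraries. In L12-ECKO against WT limma called 2 of 20, both lower. Of all tested genes 0.481% were called in that comparison, 0.292% higher and 0.189% lower. Mef2a, a MEF2 transcription factor, averaged 12.15 ± 0.22 in L12-ECKO and 13.16 ± 0.22 in WT, a difference of -1.01 (SE 0.22, limma adjusted p = 0.0474, n = 4 each). Gja4, which encodes connexin 37, averaged 10.07 ± 0.56 and 11.44 ± 0.15 in the same order, a difference of -1.37 (SE 0.30, limma adjusted p = 0.0481, n = 4 each). In L12YT-ECKO Mef2a stood at 12.58 and Gja4 at 11.45. limma called 0 of 20 in L12YT-ECKO against L12-ECKO and 0 of 20 in L12YT-ECKO against WT, where 4 and 4 had an unadjusted p under 0.05 and 0.0688% and 0.0086% of all tested genes were called. Both calls were close to the threshold, and Mef2a lost it in 18 and Gja4 in 20 of 23 alternative settings, with adjusted p-values up to 0.726 and 0.242.

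Most other genes that mark the cells known to make apelin in the lung had the opposite sign to Apln in both comparisons with L12-ECKO and the same sign in L12YT-ECKO against WT. Of 9 aerocyte markers 7 had a lower mean in L12-ECKO than in WT, with a median difference of -0.87, whereas Apln was higher. In L12YT-ECKO against L12-ECKO 7 of 9 were higher, with a median of 1.05 against 0.09 over all tested genes, while Apln was lower. In L12YT-ECKO against WT 8 of 9 were higher, with a median of 0.46, as Apln was. Their mean per library was 9.59 to 10.20 in L12YT-ECKO, 8.01 to 9.17 in L12-ECKO and 8.82 to 9.67 in WT. limma called none of the 9 in any comparison, and 6, 3 and 1 had an unadjusted p under 0.05 in L12YT-ECKO against L12-ECKO, L12-ECKO against WT and L12YT-ECKO against WT.

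In L12-ECKO against WT 0 of the 9 aerocyte markers were lower with no overlap, and 3.36% of all tested genes were. In L12YT-ECKO against WT 2 of 9 were higher with no overlap, beside 4.7% of all tested genes in either direction. In L12YT-ECKO against L12-ECKO 4 of 9 were higher with no overlap, and 2.75% of all tested genes were. These 4 are named because of their separation, after their values were seen. Ednrb, an endothelin receptor, differed by 1.44 (SE 0.38), Tbx2, a T-box factor, by 1.46 (SE 0.45), Prx, the scaffold protein periaxin, by 1.39 (SE 0.34) and Rprml by 4.57 (SE 1.57), a gene listed at 0 in 3 of 4 L12-ECKO libraries. Their limma adjusted p-values were 0.295, 0.527, 0.223 and 0.586. The most abundant markers of the list were Emp2, a tetraspan membrane protein, at 12.71 ± 0.46 in L12YT-ECKO, 11.66 ± 0.87 in L12-ECKO and 11.85 ± 0.18 in WT, and Kdr, a VEGF receptor, at 12.79 ± 0.26, 12.82 ± 0.27 and 12.67 ± 0.26 (SD, n = 4 each).

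Markers of general capillary cells, the class in which the receptor is found, were lower in L12-ECKO than in WT for 8 of the 9 tested, with a median difference of -0.63 beside -0.59 for Aplnr. limma called 2 of 9, both lower, against 0.189% of all tested genes called lower. Sema3c, a secreted semaphorin, averaged 8.76 ± 0.22 in L12-ECKO and 10.70 ± 0.55 in WT, a difference of -1.94 (SE 0.36, limma adjusted p = 0.0196, n = 4 each). Cd93, a C-type lectin-like receptor, averaged 13.81 ± 0.06 and 14.56 ± 0.15 in the same order, a difference of -0.75 (SE 0.16, limma adjusted p = 0.0481, n = 4 each). In L12YT-ECKO Sema3c stood at 9.56 and Cd93 at 14.56. All L12YT-ECKO libraries of Sema3c lay below all WT libraries, and 4.7% of all tested genes separated there in either direction. In L12YT-ECKO against L12-ECKO 4 of 9 were higher and 5 lower, with a median of -0.02 beside 0.62 for Aplnr, and in L12YT-ECKO against WT 7 of 9 were lower, with a median of -0.39 beside 0.03 for Aplnr. limma called 0 of 9 in both of those comparisons, with 3 and 3 at an unadjusted p under 0.05. The call of Sema3c was lost in 6 of 23 alternative settings and that of Cd93 in 20, with adjusted p-values up to 0.266 and 0.364.

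Among 19 tip cell genes, all tested, limma called 2 in L12-ECKO against WT, both higher, against 0.292% of all tested genes called higher. Igfbp3, an IGF-binding protein, averaged 10.18 ± 1.70 in L12-ECKO and 6.19 ± 1.13 in WT, a difference of 3.99 (SE 0.76, limma adjusted p = 0.0267, n = 4 each). Mcam, the cell adhesion molecule CD146, averaged 13.81 ± 0.50 and 12.53 ± 0.13 in the same order, a difference of 1.28 (SE 0.25, limma adjusted p = 0.0267, n = 4 each). In L12YT-ECKO Igfbp3 stood at 7.53 and Mcam at 12.90. The list as a whole did not lie on one side, with 12 of 19 higher and 7 lower and a median of 0.15. In L12-ECKO against WT 9 of 19 had an unadjusted p under 0.05 in limma. With no overlap, 5 were higher and 3 lower, beside 2.97% and 3.36% of all tested genes. In L12YT-ECKO against L12-ECKO 9 were higher and 10 lower (median -0.03), and in L12YT-ECKO against WT 15 were higher and 4 lower (median 0.18). limma called 0 of 19 in each of these, with 6 and 3 at an unadjusted p under 0.05. Igfbp3 lost its call in 8 and Mcam in 9 of 23 alternative settings, with adjusted p-values up to 0.137 and 0.268.

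Apln is also induced by low oxygen, and 18 of 19 hypoxia genes were tested. In L12-ECKO against WT limma called 1 higher and 1 lower, against 0.292% and 0.189% of all tested genes. Ddit4, an inhibitor of mTOR signalling, averaged 11.68 ± 0.44 in L12-ECKO and 9.81 ± 0.41 in WT, a difference of 1.87 (SE 0.40, limma adjusted p = 0.047, n = 4 each). Vegfa, the main vascular growth factor, averaged 11.70 ± 0.45 and 12.96 ± 0.47 in the same order, a difference of -1.25 (SE 0.28, limma adjusted p = 0.0481, n = 4 each). In L12YT-ECKO Ddit4 stood at 10.87 and Vegfa at 12.47. The list median was 0.26 in L12-ECKO against WT, -0.24 in L12YT-ECKO against L12-ECKO and 0.10 in L12YT-ECKO against WT. limma called 0 of 18 in both comparisons of L12YT-ECKO, with 3 and 2 at an unadjusted p under 0.05. Ddit4 lost its call in 13 and Vegfa in 20 of 23 alternative settings, with adjusted p-values up to 0.229 and 0.265.

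Arterial and venous markers were set beside the receptor, which is a venous gene in many vascular beds. All 8 arterial markers had a lower mean in L12-ECKO than in WT, with a median of -1.09, and limma called 2 of them lower, against 0.189% of all tested genes. Sox17, an arterial transcription factor, averaged 12.14 ± 0.34 in L12-ECKO and 13.30 ± 0.22 in WT, a difference of -1.16 (SE 0.22, limma adjusted p = 0.0267, n = 4 each), and Gja4, given above, is the other. In L12YT-ECKO Sox17 stood at 13.31. The median of the 8 was 0.92 in L12YT-ECKO against L12-ECKO and -0.17 in L12YT-ECKO against WT, where limma called 0 of 8 in each, with 5 and 0 at an unadjusted p under 0.05. Sox17 lost its call in 11 of 23 alternative settings, with adjusted p-values up to 0.517.

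The 5 venous markers had medians of -0.06 in L12YT-ECKO against L12-ECKO, 0.11 in L12-ECKO against WT and 0.06 in L12YT-ECKO against WT. limma called 0 of 5 in each, with 2, 2 and 0 at an unadjusted p under 0.05. Ephb4, the venous ephrin receptor, averaged 11.38 ± 0.21 in L12YT-ECKO, 11.67 ± 0.47 in L12-ECKO and 11.25 ± 0.39 in WT. Nrp2, a co-receptor for VEGF-C, averaged 9.97 ± 0.44, 10.83 ± 0.30 and 9.91 ± 0.52 in the same order (SD, n = 4 each). In L12YT-ECKO against L12-ECKO Nrp2 differed by -0.86 (limma adjusted p = 0.704). The groups did not overlap, as for 1.62% of all tested genes in that direction. Nr2f2, a transcription factor of venous identity named after its values were seen, had its lowest mean in L12-ECKO. It averaged 10.44 ± 0.19, 9.31 ± 0.96 and 10.61 ± 0.38 (SD, n = 4 each). Its differences were 1.14 in L12YT-ECKO against L12-ECKO and -1.30 in L12-ECKO against WT, neither called (limma adjusted p = 0.607 and 0.173). Both were without overlap, as for 2.75% of all tested genes in the former direction and 3.36% in the latter.

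**Figure D3:**
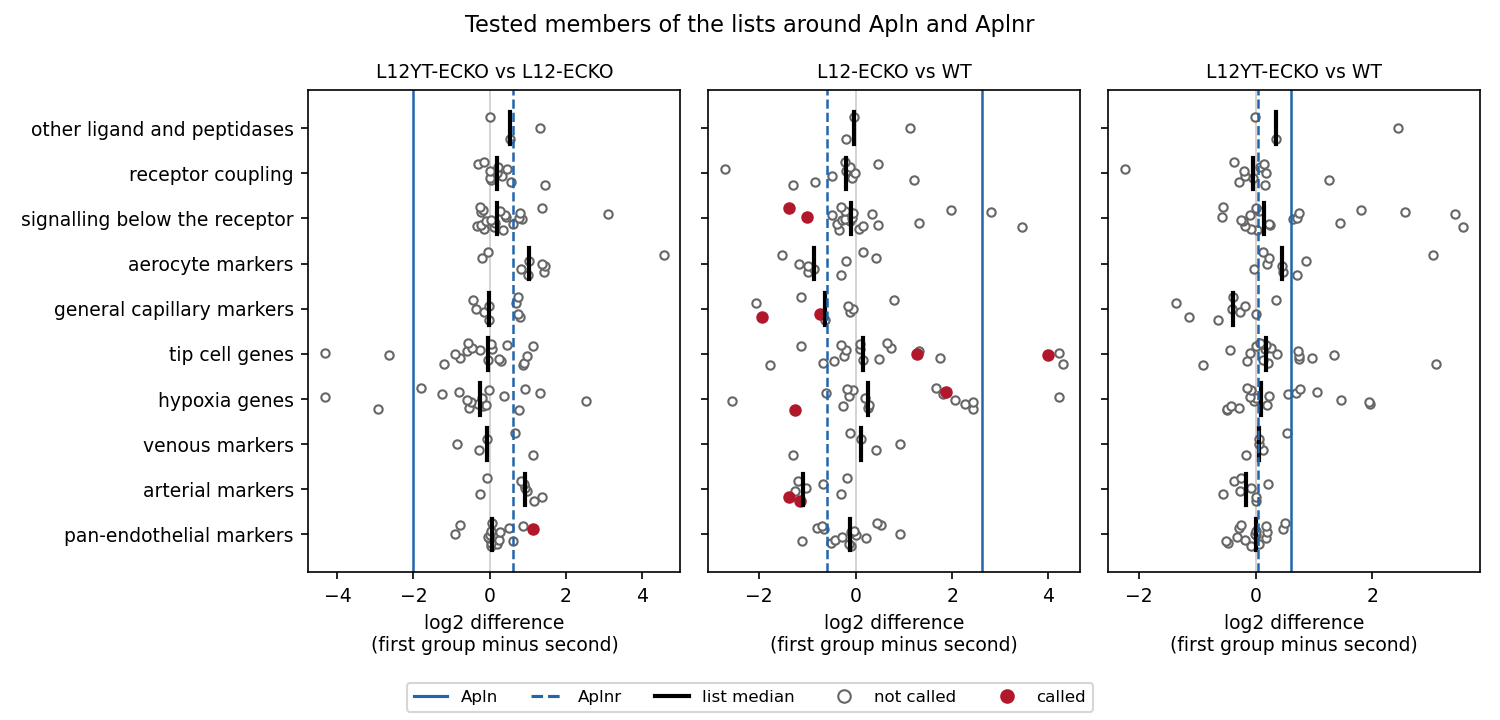
Log2 difference (horizontal axis) of each tested gene of 10 lists (vertical axis) in the 3 comparisons, first group minus second. Circles are genes, filled where limma called them, black bars are list medians, and the blue lines give Apln (solid) and Aplnr (dashed). In L12-ECKO against WT Apln stands at 2.61 while the median of the aerocyte markers is -0.87, with every such marker overlapping between the groups.

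Ctgf and Cyr61, secreted matricellular proteins that serve as common readouts of YAP and TAZ, give a scale for the ligand. Ctgf stood at 9.48, 8.70, 10.16 and 9.96 in L12YT-ECKO, 14.44, 12.71, 13.33 and 14.74 in L12-ECKO and 5.84, 7.68, 9.08 and 7.89 in WT. Cyr61 stood at 7.59, 8.32, 9.51 and 8.88 in L12YT-ECKO, 13.13, 11.14, 11.22 and 12.71 in L12-ECKO and 7.48, 7.14, 8.62 and 8.07 in WT. As for Apln, all L12-ECKO libraries of both genes lay above all others. The log2 difference of L12-ECKO against WT was 6.18 for Ctgf and 4.22 for Cyr61, beside 2.61 for Apln. Among the L12-ECKO libraries the order differed, since replicate 4 had the highest Ctgf value and the lowest Apln value of the group.

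Genes were also ranked by their likeness to each member, as the Pearson correlation over 12 libraries, which share 3 group means and the authors' normalisation. Among the 5 nearest to Apln were Rims2 (r = 0.946), Crim1 (0.931), Lasp1 (0.930) and Fam101b (0.928). Rims2, a synaptic vesicle scaffold gene, averaged 7.44 in L12-ECKO, was listed at 0 in 3 of 4 L12YT-ECKO libraries, where the remaining value was 0.86, and at 0 in all WT libraries. Crim1, a transmembrane regulator of BMP signalling, averaged 10.498 in L12YT-ECKO, 12.07 in L12-ECKO and 10.06 in WT. Lasp1, an actin-binding protein, averaged 11.42, 12.10 and 11.22 in the same order, and Fam101b, an actin regulator of the refilin family, averaged 10.94, 12.67 and 10.91. As in Apln, the L12-ECKO libraries of these 4 genes lay above all others, a feature that the choice by correlation favours.

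When the group means were taken out, different genes came first. The deviations of Apln correlated best with those of Arrdc3 (r = 0.923), Rpain (0.890), Srek1ip1 (0.872), Gar1 (0.870) and C1qbp (0.867). Arrdc3, an arrestin-domain protein, had an r of -0.43 with Apln over the 12 libraries with group means kept, and averaged 10.48 in L12YT-ECKO, 9.30 in L12-ECKO and 10.64 in WT. None of these 5 was among the 5 nearest over all libraries.

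Nearest to Aplnr over the 12 libraries were Elof1 (r = 0.911), Pitpnc1 (0.901), Rnf187 (0.898), Guk1 (0.891) and Icam2 (0.883). Icam2, an adhesion molecule of endothelial cells and one of the pan-endothelial markers, averaged 12.75 in L12YT-ECKO, 11.88 in L12-ECKO and 12.58 in WT. Guk1, guanylate kinase, averaged 11.57, 10.79 and 11.88 in the same order, and its L12-ECKO libraries lay below all WT libraries. All 5 had their lowest mean in L12-ECKO, as Aplnr did, which the choice by correlation also favours. By deviations from the group means the nearest were Txnrd3 (0.914), Samm50 (0.913), Cyb561d2 (0.894), Ftsj3 (0.874) and Rpl7l1 (0.873).

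**Figure D4:**
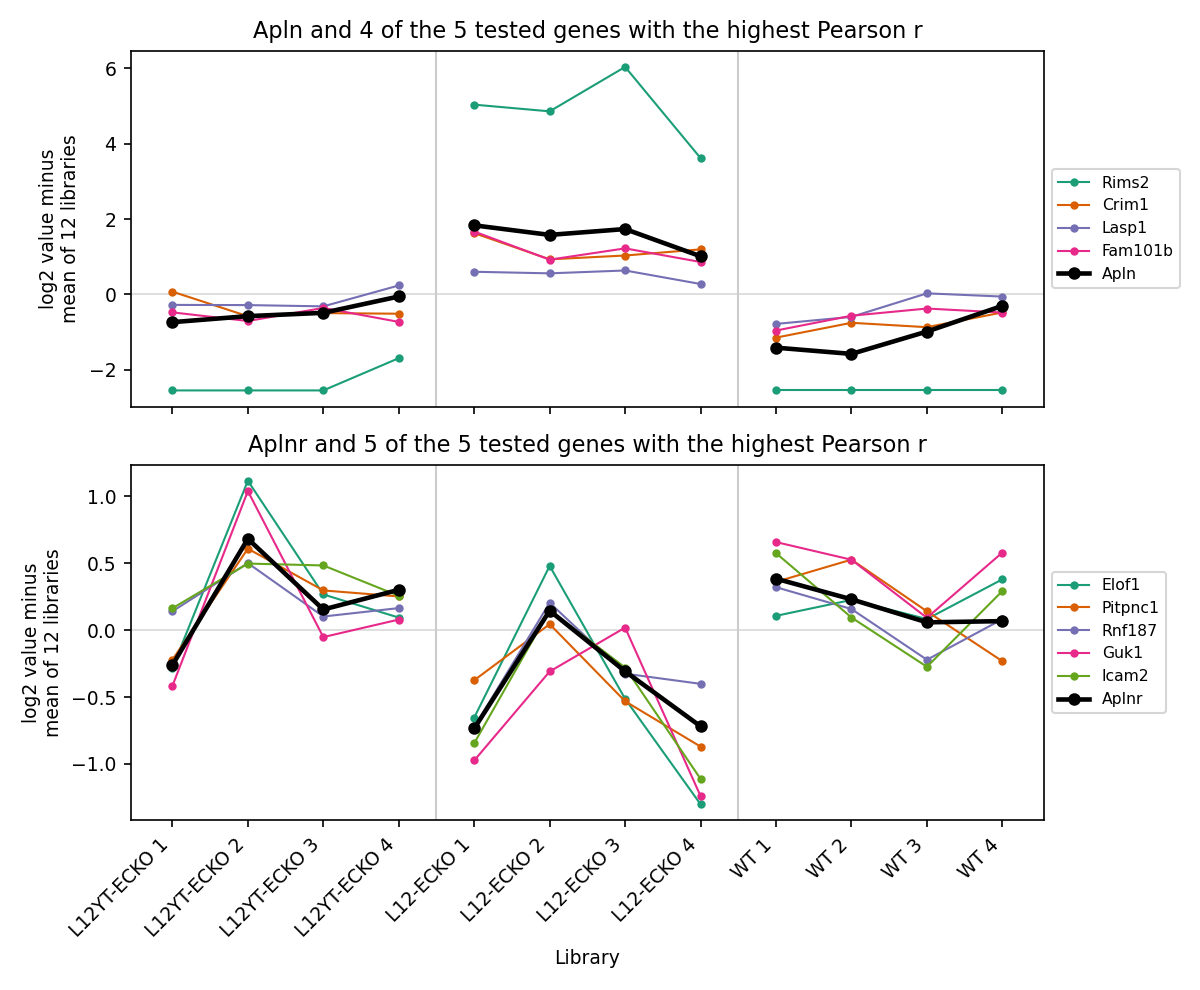
Log2 expression of Apln (top, black) and Aplnr (bottom, black) with 4 and 5 of the 5 tested genes of highest Pearson r to each, as the value minus the gene's mean of 12 libraries (vertical axis), by library (horizontal axis). Lines join the libraries of a group only to keep a gene's points together. The genes nearest to Apln are high in the 4 L12-ECKO libraries, and those nearest to Aplnr have their lowest mean there. The choice by correlation favours both features.

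The differences of both members were recomputed under each alternative setting. The filters, the variance prior, a replicate term and leaving out a library of an uncompared group cannot move them by construction. Apln in L12YT-ECKO against L12-ECKO ranged from -2.49 to -1.72 over 24 alternative settings, and in L12-ECKO against WT from 2.44 to 2.91 over 23. In L12YT-ECKO against WT it ranged from 0.41 to 0.86. Aplnr ranged from 0.47 to 0.95, from -0.92 to -0.42 and from -0.12 to 0.19 in the same comparisons, so the direction of its near-zero difference in L12YT-ECKO against WT was not fixed.

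**Figure D5:**
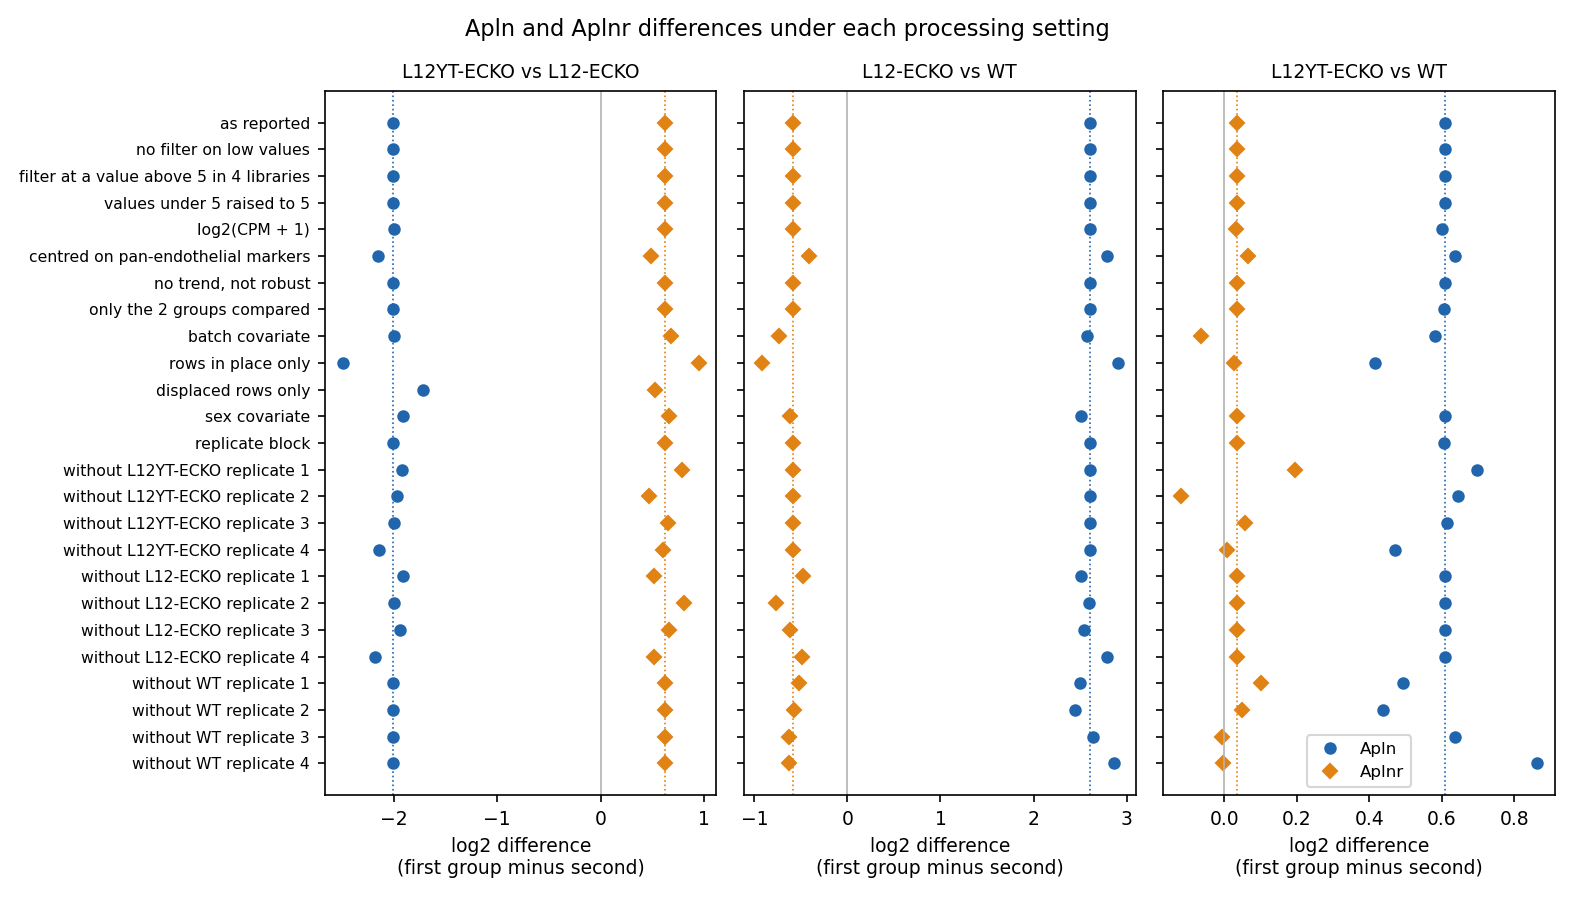
Log2 difference (horizontal axis) of Apln (blue circles) and Aplnr (orange diamonds) in the 3 comparisons under each setting (vertical axis), with dotted lines at the values as reported. Apln stays between -2.49 and -1.72 in L12YT-ECKO against L12-ECKO and between 2.44 and 2.91 in L12-ECKO against WT.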

How the data were processed

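Gene expression was measured in 12 libraries, 4 per group, of 3′ sequencing (Lexogen QuantSeq) from total RNA extracted with Trizol, per the labels' protocols. The deposited values are log2 expression per gene that the authors had already quantile-normalised, as judged from the values, whose 5000 highest ranks differ by at most 0.168 between libraries. Bowtie2, edgeR and mm10 are named in the submitters' processing notes, without roles or versions. Depth is unknown, so its precision could not be set.

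Groups and replicate numbers came from the sample titles. Nothing says that the libraries came from separate animals, so p-values measure only the spread between these libraries. Of 24421 rows, 27 with date-like names in some tables and 35 displaced or exchanged rows were left out. Correlations of the displaced rows to the WT mean were -0.088 to 0.026, and 0.741 to 0.868 once moved by 1 row. limma 3.58.1 (R 4.3.3) fitted a mean per group to the deposited log2 values with a trended, robust variance prior, with no pseudocount. Genes had to reach 1 CPM in 4 libraries or more (CPM was computed from the values taken off the log2 scale). Genes were called at a Benjamini-Hochberg adjusted p under 0.05 over 11633 genes. The fit was tested on simulated data.

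The members and the 16 gene lists (160 genes) were chosen with earlier results of these data known. Named genes were the called members of each list, at most 4, or the 2 most abundant where none was called, and the 5 genes nearest to each member, besides the targeted genes, Ctgf and Cyr61; 1 gene this rule names is not reported here. Untested list members, Nr2f2, Gnai3 and the separated aerocyte markers were named after their values were seen. Alternatives changed the filter, the scale, the variance prior, the libraries fitted, the batch, sex and replicate terms, and left out each library in turn.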

Additional observations from a re-analysis of the deposited data

Results flagged for a closer look

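Apln in L12YT-ECKO against WT differed between the sexes by 1.055 (log2), with 0.87 in males (3 libraries against 3) and -0.185 in females (1 against 1). Apln minus Aplnr differed by 1.126, with 0.854 in males and -0.272 in females. Every male L12YT-ECKO library lay above the male WT mean and the female one below the female WT library, and neither difference between the sexes was tested.

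A single library stood apart from the other 3 of its group in 8 of 117 groups of 4 examined, where chance gives about 1 in 20. Lats1 was at 0 in L12YT-ECKO replicate 2, against 7.11 to 7.90 in the others. Yap1 was at 6.694 in L12YT-ECKO replicate 3, against 7.96 to 8.20. In L12-ECKO replicate 4 Wwtr1 was at 10.112, against 11.49 to 11.57, and Arrb1 at 12.634, against 11.90 to 11.97. Arrb1 was at 11.633 in WT replicate 3, against 12.48 to 12.56. In L12-ECKO replicate 3 Pdpn was at 0, against 6.20 to 6.83, and Col1a2 at 8.783, against 8.01 to 8.03. Alb was at 0 in WT replicate 1, against 4.46 to 5.22. No library of Apln or Aplnr stood apart by this measure.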

How the results depend on the processing

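No difference of Apln, or of Apln minus Aplnr, changed sign under the 24 alternative settings, although within females alone L12YT-ECKO against WT was -0.185 and -0.272, and the sign of Aplnr in L12YT-ECKO against WT varied around 0. Many of these settings could not move a difference of group means, so their number is no measure of its stability. With the libraries with rows in place alone, Apln in L12YT-ECKO against L12-ECKO was -2.492, and Apln minus Aplnr was -3.437 there and 3.826 in L12-ECKO against WT, each resting on 1 L12-ECKO library. The number of called genes depended on the setting. For L12YT-ECKO against L12-ECKO it was 8, and 3 without the trended robust prior, 5 with the 2 groups alone, 5 with sex as a covariate, 14 with rows in place alone and 0 with displaced rows alone, where 396 genes had an unadjusted p under 0.05 in limma. For L12-ECKO against WT it was 56, and 21 without the filter, 7 without the trended robust prior, 30 with the 2 groups alone, and 15 with the batch and 15 with sex as covariates. With each library left out in turn the counts ran from 4 to 9, from 15 to 80 and, for L12YT-ECKO against WT, from 1 to 3. The cause of these shifts was not tested. Fits with fewer libraries have fewer degrees of freedom by construction. With the depth unknown, a value of 0 cannot be read as absence.

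The replicate numbers share a number only. Same-numbered libraries had deviation correlations of -0.046 to 0.058 over 12 pairs, and 4 libraries correlated best with their own number. With a replicate block 6, 43 and 1 genes were called. The differences of Apln and Aplnr could not change there, because every group holds each replicate number.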
